A study of Homo sapiens with 12 samples.

Results

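The genes described here were 38 lysosomal genes, chosen by name from a fixed set: cathepsins and other lysosomal proteases, glycosidases and sulfatases, enzymes and activator proteins of lipid breakdown, membrane proteins with progranulin, subunits of the proton pump, and the TFEB family of transcription factors. All 38 symbols were found among the 58735 genes of the deposited table, and all 38 were among the 16046 genes that passed the filter on low counts. The rule uses gene names and no measured value, but the set was drawn up with earlier results of these data known. The RNA came from tumour-associated macrophages (TAMs) modelled with THP-1, a human monocytic leukaemia line that was turned into macrophages with phorbol 12-myristate 13-acetate (PMA). The TAMs occupied the lower chamber of a Transwell system and were separated by a porous membrane from AsPC-1, a pancreatic cancer line, so that only soluble factors could pass. There were 4 groups of 3 libraries. In control the AsPC-1 cells carried the empty lentiviral vector, and in OE-MMP28 they overexpressed MMP28, a secreted matrix metalloproteinase. In anti-IL-8 and anti-VEGFA, the same overexpressing cells were used and an antibody that neutralises IL-8 or VEGFA was added. No group with an isotype antibody is among these 12 libraries, so an effect of antibody as such and of neutralisation cannot be told apart. One line stands for all macrophages here, and the labels do not say whether the 3 libraries of a group came from separate cultures, so that the p-values measure the spread between libraries, which may be technical.

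Lysosomes break down proteins, glycans and lipids that reach them by endocytosis, phagocytosis and autophagy, with hydrolases that work in the acid lumen kept by the V-ATPase proton pump. TFEB, TFE3 and MITF are related transcription factors that bind an E-box in the promoters of many lysosomal genes, and the kinase mTORC1 holds TFEB and TFE3 in the cytoplasm when nutrients are plentiful. Macrophages are rich in lysosomes, and cathepsins that TAMs secrete can also cut the matrix around tumour cells.

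Library totals lay between 15852346 and 18701195 counts, and mitochondrial genes took 6.92% to 17.8% of them, with the highest share in anti-VEGFA replicate 2. At these totals 3 counts equal 0.160 to 0.195 CPM (counts scaled to a common library size by TMM), which is far below every member except ATP6V0D2, whose counts ran from 31 to 96. Of the macrophage markers, ITGAM was at 398 to 671 CPM and ITGB2 at 3490 to 7254 CPM. CD68 had at most 5 counts in any library, and 81.7% of its exon bases in GENCODE 29 are shared with another annotated gene on the same strand. LYZ was low, at 4.83 to 10.0 CPM. The 12 epithelial markers of the cocultured cells summed to 7.48 to 15.2 CPM, and EPCAM had no count in any library. Libraries of 1 group also differed among themselves: OE-MMP28 replicate 2 was the lowest of its group and replicate 3 the highest for CTSD, CTSA, GAA and GRN, among others. The GC content of the genes' longest transcripts, averaged with counts as weights, ranged from 47.7% in OE-MMP28 replicate 2 to 50.3% in anti-IL-8 replicate 3. It depends on which genes were counted, and the GC content of the reads themselves was not measured. A list of 22 interferon-stimulated genes had medians of -3.25, -3.50 and -2.89 on the log2 scale in OE-MMP28, anti-IL-8 and anti-VEGFA against control. The part of these differences in the results on lysosomal genes was not tested, apart from the GC correction given below. In RNA from a whole culture, fewer cells of a type and less RNA per cell cannot be told apart.

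Levels were compared between genes per length, with the FPKM values of the authors. The order in control TAMs was led by PPT1 and PSAP, both of the lipid group. PPT1, the thioesterase that removes fatty acids from proteins, was at 806 ± 63.8 FPKM (SD, n = 3), and PSAP, the precursor of the saposins that activate sphingolipid hydrolases, was at 662 ± 45.2 FPKM. The tetraspanin CD63 followed at 613 ± 25.5 FPKM, an interval that overlaps that of PSAP. The endopeptidases CTSB and CTSL came next, at 404 ± 27.5 and 358 ± 19.04 FPKM. CTSZ (238 ± 15.2 FPKM), CTSS (165 ± 2.67 FPKM), CTSD (120 ± 2.70 FPKM) and CTSH (116 ± 2.90 FPKM) completed the upper cathepsins, so that 6 of the 11 proteases lay above 100 FPKM. No glycosidase or sulfatase reached that level. GLA, the α-galactosidase, was their highest at 94.1 ± 11.9 FPKM. HEXA, the α subunit of β-hexosaminidase A, was their lowest at 3.58 ± 0.176 FPKM. This order depends on the gene lengths the authors used. Without division by length HEXA was above ARSA and FUCA1 in control, at means of 45.8, 33.1 and 18.5 CPM. Of the transcription factors, TFE3 was at 21.1 ± 1.94 FPKM, TFEB at 9.24 ± 0.767 FPKM and MITF at 4.65 ± 0.581 FPKM. The scarcest members were LGMN, the asparaginyl endopeptidase, at 1.86 ± 0.332 FPKM and the V-ATPase subunit ATP6V0D2 at 1.42 ± 0.385 FPKM, which overlap within their spread. PPT1 shares 23.4% of its exon bases with CAP1 on the opposite strand. The library kit does not mark strand, so part of the PPT1 reads could be from CAP1.

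**Figure D1:**
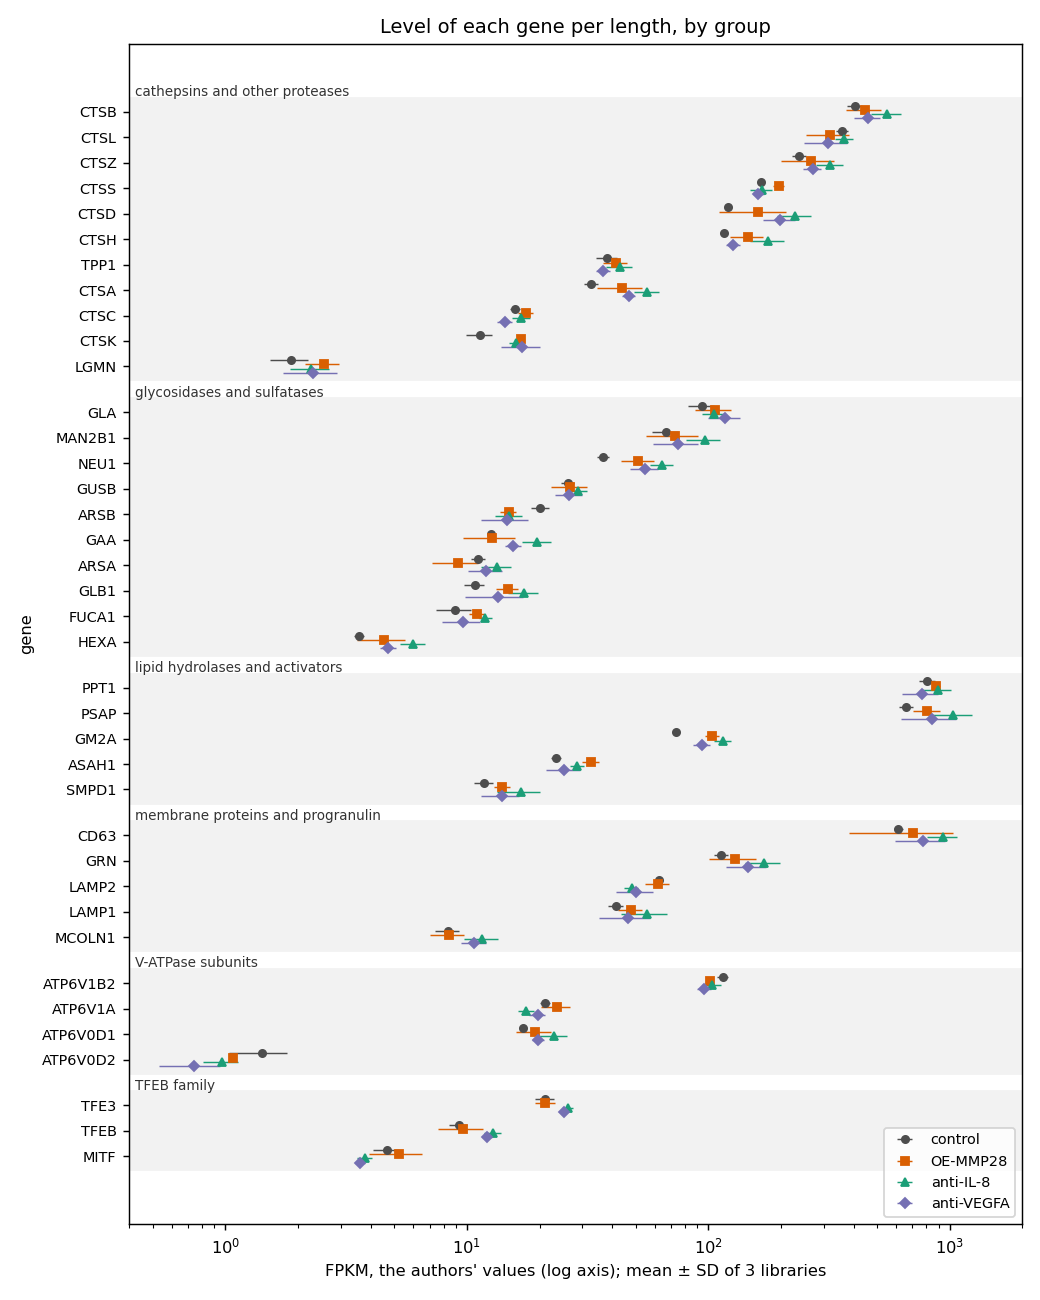
FPKM of each of the 38 genes (log axis, mean ± SD of 3 libraries) in control, OE-MMP28, anti-IL-8 and anti-VEGFA TAMs, grouped by class and ordered by the control level. PPT1 and PSAP were the highest and ATP6V0D2 the lowest, and the 4 groups of a gene lay close together beside the spread between genes.

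The first comparison asked what coculture with MMP28-overexpressing cancer cells did to lysosomal genes in TAMs. GM2A and CTSK rose and no member fell at an adjusted p under 0.05 (edgeR, over all 16046 genes). Over all genes, 0.523% were called higher and 2.64% lower. GM2A encodes the activator protein that presents GM2 ganglioside to β-hexosaminidase A. It was at 326, 337 and 342 CPM in control and at 457, 446 and 506 CPM in OE-MMP28, in replicate order. All 3 OE-MMP28 libraries were above all 3 controls, with a log2 fold change of 0.49 (SE 0.12, adjusted p = 0.029 by edgeR). CTSK, the collagen-degrading cathepsin best known from osteoclasts, was at 19.6, 20.3 and 24.9 CPM in control and at 32.5, 30.9 and 32.4 CPM in OE-MMP28. Its groups were likewise apart, with a log2 fold change of 0.56 (SE 0.15, adjusted p = 0.041 by edgeR). At an unadjusted p under 0.05, 10 members were higher and 1 was lower, beside 5.93% and 8.61% of all genes. The sialidase NEU1 had a log2 fold change of 0.48 (adjusted p = 0.083 by edgeR) and the acid ceramidase ASAH1 one of 0.48 (adjusted p = 0.066 by edgeR). The member that was lower was ARSB, the sulfatase of dermatan sulfate, with a log2 fold change of -0.44 (adjusted p = 0.16 by edgeR).

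In total 32 of 38 members had a positive log2 fold change in OE-MMP28 against control, beside 53.3% of all genes tested, and the median member stood at 0.16 against 0.02 for all genes. With library totals in place of TMM the positive members numbered 28 and neither gene was called. The GM2A call was lost without control replicate 1, 2 or 3 or OE-MMP28 replicate 1 or 3 (adjusted p up to 0.15 by edgeR), and that of CTSK without control replicate 1 or 2, OE-MMP28 replicate 1 or 3, or any anti-IL-8 library (up to 0.22). DESeq2 called 4 members, adding ASAH1 and NEU1, beside 4.14% of all genes against 3.16% by edgeR. When OE-MMP28 replicate 2 was left out 5 members were called (3.12% of all genes), and when anti-VEGFA replicate 2 was left out 4 were (3.89%). Over the 38 genes Pearson's r between log2 fold change and GC content was -0.01, and with offsets for GC content and length 6 members were called higher, namely GM2A, CTSK, NEU1, ASAH1, CTSA and CTSD, beside 6.05% of all genes in either direction.

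**Figure D2:**
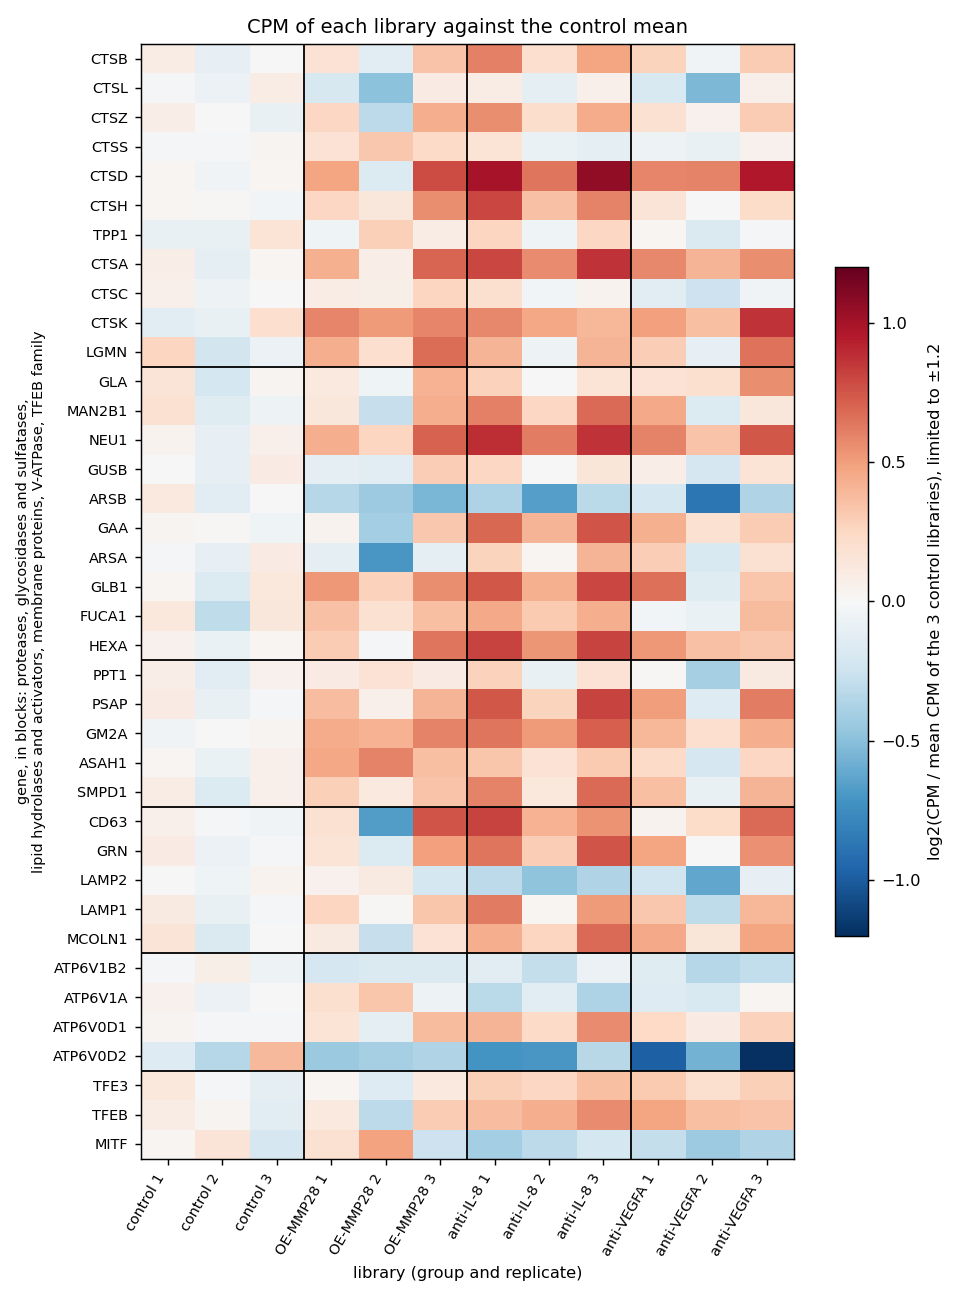
Log2 ratio of CPM in each of the 12 libraries (columns) to the mean of the 3 control libraries, for the 38 genes (rows, in blocks by class), with red above and blue below control and the scale limited to ±1.2. CTSD, NEU1, CTSA and HEXA were above the control mean in all 3 anti-IL-8 libraries, and OE-MMP28 replicates 2 and 3 differed for CD63, CTSD and GAA.

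Next, TAMs cocultured with MMP28-overexpressing cells in the presence of anti-IL-8 were set against control. These groups differ in both the overexpression and the antibody. Here 15 members rose and 1 fell, beside 9.77% of all genes called higher and 10.9% called lower. Of the 38 members, 31 had a positive log2 fold change, and the median was 0.41 against -0.02 over all genes. The genes that rose came from every class. There were 4 of 11 proteases, 4 of 10 glycosidases and sulfatases, 3 of 5 lipid hydrolases and activators, 2 of 5 membrane proteins with progranulin, 1 of 4 V-ATPase subunits and 1 of 3 TFEB family members.

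Among proteases, the largest change was in CTSD, the main aspartic protease of lysosomes. It was at 386, 370.5 and 386 CPM in control, at 529.8, 339 and 654 CPM in OE-MMP28, at 758, 595 and 798 CPM with anti-IL-8, and at 572, 577 and 743 CPM with anti-VEGFA. The controls were within a narrow range and below every antibody library, while OE-MMP28 replicate 2 was below the controls. The anti-IL-8 difference from control was 0.91 (SE 0.19) on the log2 scale, or 1.88-fold, with an adjusted p of 0.0042 by edgeR. CTSD shares 41.7% of its exon bases with another annotated gene on its strand, whose counts were 0.102% of its own. Whether reads in the shared bases were left uncounted for both genes was not tested. CTSA, the carboxypeptidase that also protects NEU1 and β-galactosidase in a shared complex, was at 205, 181 and 197.5 CPM in control and at 339, 287.5 and 355 CPM with anti-IL-8. These groups did not overlap (log2 fold change 0.75, SE 0.15, adjusted p = 0.0028 by edgeR). In OE-MMP28 CTSA was at 261, 205 and 316.5 CPM, which overlapped control. CTSH, an aminopeptidase, was at 705, 699 and 679 CPM in control and at 1208, 886 and 1049 CPM with anti-IL-8, 0.59 higher on the log2 scale (SE 0.14, adjusted p = 0.0099 by edgeR). CTSK was at 32.3, 29.8 and 28.4 CPM with anti-IL-8, close to its OE-MMP28 values and above control (log2 fold change 0.48, adjusted p = 0.029 by edgeR). The other 7 proteases did not pass the test. CTSB and CTSZ had log2 fold changes of 0.44 and 0.41 (adjusted p = 0.059 and 0.079 by edgeR), whereas CTSL and CTSS, the protease of antigen presentation, were at 0.01 and -0.00.

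The glycosidases that rose were NEU1, HEXA, GLB1 and GAA. NEU1 removes sialic acids from glycans. It was at 185, 167 and 187 CPM in control, at 243.5, 215 and 293 CPM in OE-MMP28, at 333, 274 and 328.5 CPM with anti-IL-8, and at 271, 228 and 301 CPM with anti-VEGFA. Every library of the other groups was above every control. The log2 fold change of 0.80 with anti-IL-8 (SE 0.14) had the smallest adjusted p of all members, 0.0014 by edgeR. HEXA was at 47.5, 43.3 and 46.6 CPM in control and at 80.5, 66.1 and 80.5 CPM with anti-IL-8, a log2 fold change of 0.72 (SE 0.15, adjusted p = 0.0039 by edgeR). HEXA cleaves GM2 ganglioside together with GM2A, and both were above control in all 3 anti-IL-8 libraries. GLB1, the β-galactosidase, was at 48.5, 42.4 and 51.9 CPM in control and at 79.7, 64.1 and 82.9 CPM with anti-IL-8 (log2 fold change 0.67, SE 0.17, adjusted p = 0.013 by edgeR). GAA, which degrades glycogen, was at 67.5, 66.4 and 63.4 CPM in control and at 106, 87.0 and 111 CPM with anti-IL-8. Its groups did not overlap, with a log2 fold change of 0.62 (SE 0.16, adjusted p = 0.012 by edgeR). ARSB was the member that fell, by 0.44 on the log2 scale (SE 0.15, adjusted p = 0.048 by edgeR); its log2 fold change in OE-MMP28 was -0.44. Of the 5 others, MAN2B1 (α-mannosidase) and FUCA1 (α-fucosidase) had log2 fold changes of 0.52 and 0.40 and GLA, GUSB and ARSA of 0.13 to 0.24, none past the threshold.

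Of the lipid group, GM2A, PSAP and SMPD1 rose. GM2A was at 524, 477 and 550.4 CPM with anti-IL-8, 0.63 above control (SE 0.12, adjusted p = 0.0023 by edgeR). PSAP was at 2327, 2047 and 2140 CPM in control and at 3647, 2615 and 3805 CPM with anti-IL-8 (log2 fold change 0.63, SE 0.19, adjusted p = 0.028 by edgeR). Anti-IL-8 replicate 2 was well below the other two libraries for PSAP. SMPD1, the acid sphingomyelinase, had a log2 fold change of 0.49 (adjusted p = 0.041 by edgeR), ASAH1 of 0.27 (0.15) and PPT1 of 0.13 (0.57).

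GRN and MCOLN1 rose among the membrane proteins and progranulin. GRN encodes progranulin, a secreted protein that is also delivered to lysosomes, and was at 451, 401 and 414 CPM in control and at 658, 519 and 710.3 CPM with anti-IL-8 (log2 fold change 0.58, SE 0.18, adjusted p = 0.029 by edgeR). MCOLN1, the calcium channel of the lysosomal membrane, was at 37.0, 29.5 and 33.4 CPM in control and at 45.0, 39.8 and 53.3 CPM with anti-IL-8 (log2 fold change 0.47, SE 0.15, adjusted p = 0.041 by edgeR). The 2 LAMP genes, which encode the most abundant proteins of the lysosomal membrane, had opposite signs. LAMP1 had a log2 fold change of 0.41 (adjusted p = 0.10) and LAMP2 of -0.38 (adjusted p = 0.057, both by edgeR), and neither passed. Of the proton pump, ATP6V0D1 rose from 145.5, 141 and 141 CPM in control to 189, 167 and 212 CPM (log2 fold change 0.41, SE 0.13, adjusted p = 0.039 by edgeR). The catalytic subunit ATP6V1A and its partner ATP6V1B2 had log2 fold changes of -0.27 and -0.16, and ATP6V0D2 of -0.57, which did not pass.

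**Figure D3:**
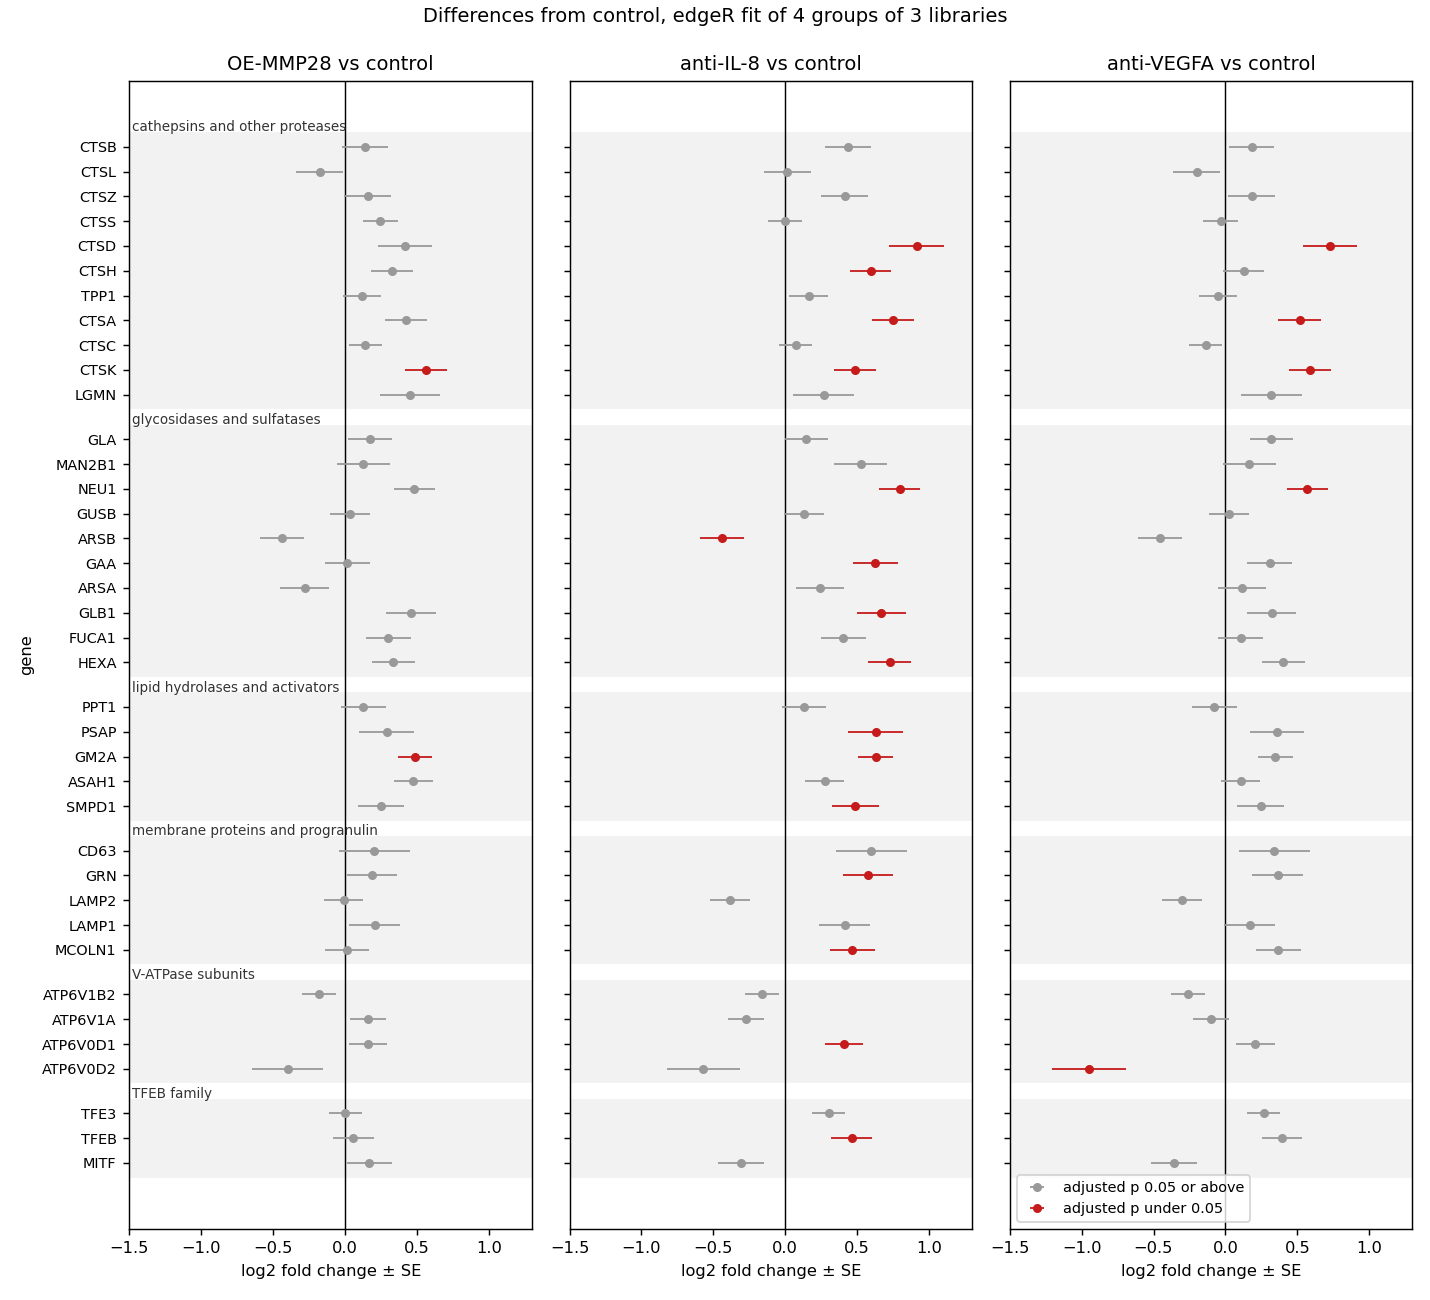
Log2 fold change ± SE of the 38 genes against control in OE-MMP28, anti-IL-8 and anti-VEGFA (edgeR, 3 libraries a group), in red where the adjusted p was under 0.05. There were 2 red points in OE-MMP28, 16 in anti-IL-8 and 5 in anti-VEGFA, and the 3 panels share their control libraries.

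The calls against control with anti-IL-8 were uneven in how firmly they held. CTSD, CTSA, NEU1, HEXA and GM2A were called in all 12 fits that each left out a library. CTSH lost its call without anti-IL-8 replicate 1 (adjusted p = 0.052 by edgeR), GAA without control replicate 3 or anti-IL-8 replicate 3 (0.054), and GLB1 without control replicate 2 or anti-IL-8 replicate 3 (up to 0.07). CTSK, PSAP, GRN, TFEB, ATP6V0D1, MCOLN1, SMPD1 and ARSB were each called in 4 to 7 of the 12 fits, and all 8 lost their calls without control replicate 1, control replicate 2 or anti-IL-8 replicate 3. The count of 16 was 8 without control replicate 1, 7 without control replicate 2, 8 without control replicate 3, 8 without anti-IL-8 replicate 1 and 6 without anti-IL-8 replicate 3. Calls over all genes moved in the same fits, from 20.7% with every library to 11.1%, 8.13%, 8.48%, 7.94% and 8.23%.

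GC content moved with this result. The members had a median GC content of 52.1% in their longest transcripts, against 48.3% over the genes tested. The average over transcripts weighted by counts was 49.7% to 50.3% in the anti-IL-8 libraries, beside 48.5% to 48.9% in control. Over the 38 genes, Pearson's r between GC content and the log2 fold change of anti-IL-8 against control was 0.63 (0.42 over 16040 genes), as a description of genes that share libraries. With offsets for GC content and length, chosen after values had been seen, 13 members were called higher and none lower, and 9 of them were among the 16. Over all genes 14.9% were called under the offsets. NEU1 stood at 0.82 (adjusted p = 0.00038), GM2A at 0.72 (0.00018), HEXA at 0.91 (0.0015), CTSA at 0.46 (0.0046) and CTSD at 0.54 (0.011), all by edgeR. PSAP, GRN, ATP6V0D1, ARSB, TFEB, SMPD1 and MCOLN1 were no longer called, and CTSC, CTSS, FUCA1 and ASAH1 were added. ASAH1, at 37.3% GC, went from 0.27 to 0.68. The median of the members was 0.26 under the offsets, with 0.06 over all genes.

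**Figure D4:**
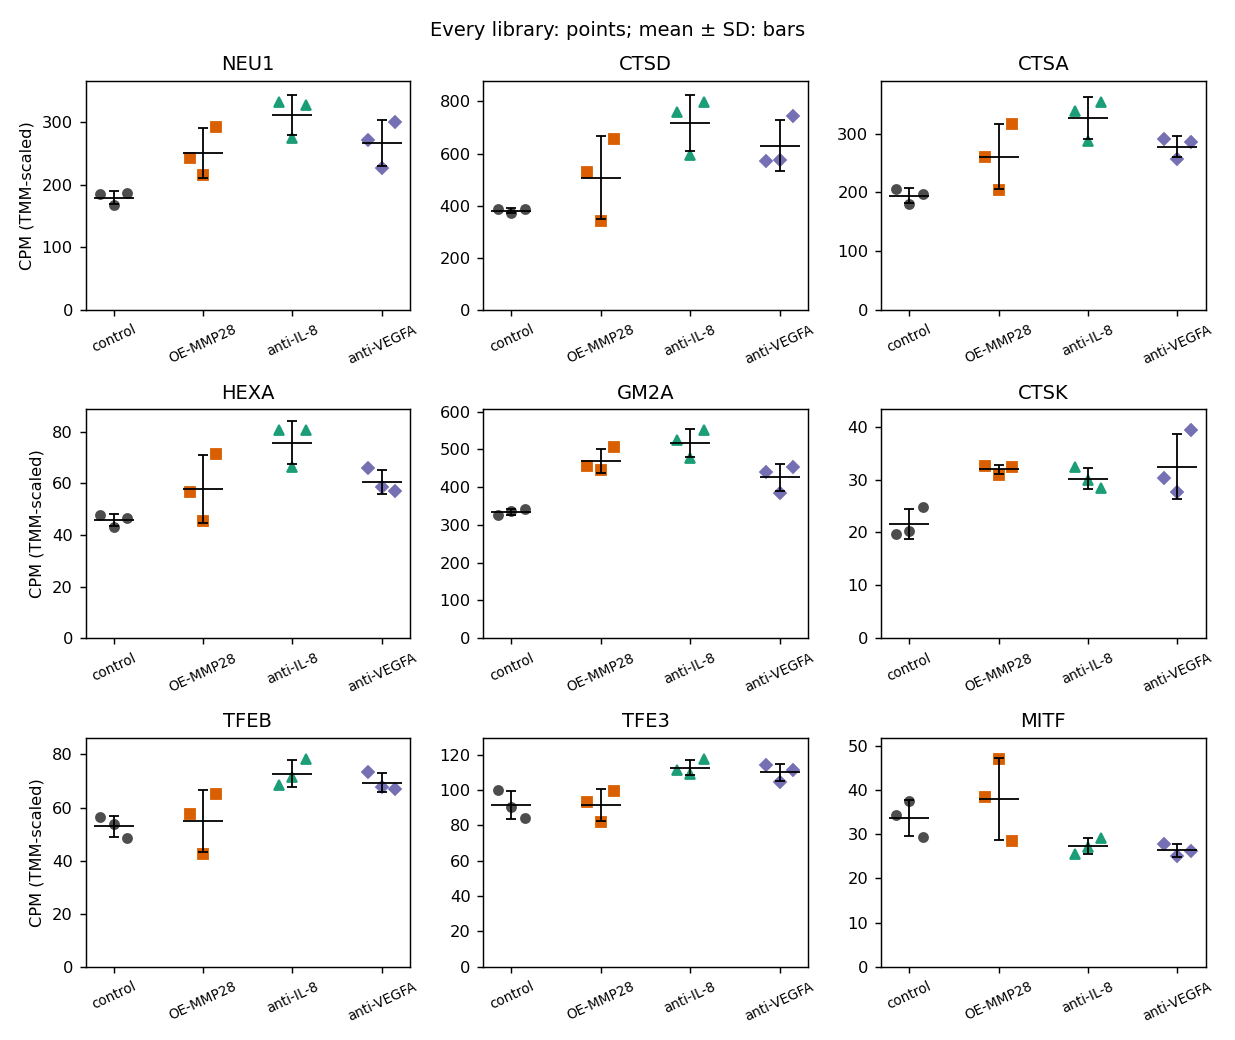
TMM-scaled CPM of NEU1, CTSD, CTSA, HEXA, GM2A, CTSK, TFEB, TFE3 and MITF in each of the 12 libraries (points, replicates 1 to 3 from left to right), with mean ± SD per group and axes from 0. All anti-IL-8 points were above all control points for the first 8 genes and below them for MITF.

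Anti-VEGFA was compared with control in the same way, and it shares the control libraries with both comparisons above. There were 4 genes that rose and 1 that fell: CTSK, NEU1, CTSD and CTSA were higher and ATP6V0D2 was lower, beside 5.60% of all genes called higher and 5.37% lower. CTSK was at 30.4, 27.7 and 39.3 CPM with anti-VEGFA, 0.59 above control (SE 0.15, adjusted p = 0.016 by edgeR). NEU1 was 0.57 higher (SE 0.14, adjusted p = 0.016) and CTSD 0.73 higher (SE 0.19, adjusted p = 0.021, both by edgeR). CTSA was at 290.4, 257 and 286 CPM, all above control, with a log2 fold change of 0.52 (SE 0.15, adjusted p = 0.032 by edgeR). ATP6V0D2, the d subunit isoform of osteoclasts and some macrophages, was at 3.89, 3.41 and 5.68 CPM in control and at 2.20, 2.92 and 1.65 CPM with anti-VEGFA. These were between 31 and 96 counts per library, and the groups did not overlap (log2 fold change -0.95, SE 0.26, adjusted p = 0.026 by edgeR). Of the 38, 27 had a positive log2 fold change, with a median of 0.18 against 0.00 for all genes. HEXA and GM2A, called with anti-IL-8, had log2 fold changes of 0.40 and 0.35 here (adjusted p = 0.092 and 0.068 by edgeR).

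Each of these calls was lost when some single library was left out. The count of 5 was 0 without control replicate 1, 1 without control replicate 2, 2 without control replicate 3 and 0 without anti-VEGFA replicate 3, and it rose to 9 if OE-MMP28 replicate 2 or 3 was left out and to 8 if anti-VEGFA replicate 2 was. Over all genes 11.0% were called with every library, 4.77%, 4.02%, 5.80% and 6.70% in the first 4 of these fits, and 15.7%, 14.9% and 8.00% in the last 3. With the GC and length offsets CTSK, NEU1 and GM2A were called higher and ARSB lower, beside 11.4% of all genes in either direction. CTSD (0.40, adjusted p = 0.056 by edgeR), CTSA and ATP6V0D2 were not called under the offsets.

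The cathepsins did not separate from the glycosidases and the lipid hydrolases in these medians. Against control, the median log2 fold change of the 11 proteases was 0.24 in OE-MMP28, 0.41 in anti-IL-8 and 0.18 in anti-VEGFA. That of the 10 glycosidases and sulfatases was 0.15, 0.46 and 0.24, and that of the 5 lipid hydrolases and activators 0.29, 0.49 and 0.24. Library by library, the median protease lay between -0.07 and 0.02 of the control mean in the controls, between 0.08 and 0.44 in OE-MMP28, between 0.20 and 0.56 with anti-IL-8 and between -0.04 and 0.30 with anti-VEGFA, on the log2 scale. The glycosidases covered -0.11 to 0.05, -0.09 to 0.39, 0.28 to 0.56 and -0.11 to 0.36, and the lipid group -0.08 to 0.08, 0.18 to 0.37, 0.18 to 0.68 and -0.15 to 0.41. In all 3 classes the controls were below the anti-IL-8 libraries, and anti-VEGFA replicate 2 was the lowest library of its group. Replicate 2 was also the lowest library of the control, OE-MMP28 and anti-IL-8 groups in all 3. With the GC offsets the medians with anti-IL-8 were 0.40 for proteases, 0.30 for glycosidases and 0.49 for the lipid group, and those with anti-VEGFA were 0.15, 0.08 and 0.27. In OE-MMP28 they were 0.26, 0.18 and 0.34. No test between the classes was made. Spread was wide inside each class: with anti-IL-8 the proteases ranged from CTSS at -0.00 to CTSD at 0.91, and the glycosidases from ARSB at -0.44 to NEU1 at 0.80.

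The comparisons of each antibody with OE-MMP28 asked what neutralisation changed while MMP28 was overexpressed. No member was called with anti-IL-8, where edgeR called 0 of the 16046 genes, a percentage of 0. At an unadjusted p under 0.05, 11 members were higher and 3 were lower with anti-IL-8 than in OE-MMP28, beside 13.4% and 15.9% of all genes. GAA had the smallest p of them. It was at 67.7, 49.4 and 82.2 CPM in OE-MMP28, and all 3 anti-IL-8 libraries were above these (log2 fold change 0.61, SE 0.16, adjusted p = 0.063 by edgeR). ATP6V1A had a log2 fold change of -0.43 (adjusted p = 0.063) and ARSA, which desulfates sulfatide, one of 0.52 (adjusted p = 0.071, both by edgeR). CTSD, HEXA, CTSA and NEU1 were at 0.50, 0.39, 0.33 and 0.32, with adjusted p of 0.10 to 0.15 by edgeR. With the GC and length offsets CTSA turned to -0.03 and CTSD went to 0.08, GAA to 0.21, ARSA to 0.05 and ATP6V1A to -0.10, while HEXA was at 0.50 and NEU1 at 0.27.

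This absence of calls depended on the tool and on single libraries. DESeq2 called 6 members higher and 3 lower, among 2259 genes called or 14.1% of all. CTSD, TFE3, GAA, TFEB, MCOLN1 and ARSA were higher, and LAMP2, ATP6V1A and MITF were lower. When OE-MMP28 replicate 3 was left out, edgeR called 14 members higher and 3 lower among 4125 genes, and when anti-VEGFA replicate 2 was left out it called 2 higher among 1166. The difference from OE-MMP28 moved with GC content. For anti-IL-8 Pearson's r over the 38 genes was 0.85, and for anti-VEGFA it was 0.82, beside 0.65 and 0.49 over all genes, and with the GC and length offsets 5 members had an unadjusted p under 0.05 with anti-IL-8 in place of 14.

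With anti-VEGFA against OE-MMP28, 55 genes or 0.343% were called, and no member was among them. At an unadjusted p under 0.05, 4 members were higher (ARSA, MCOLN1, TFEB and TFE3) and 5 lower (MITF, ASAH1, CTSC, CTSS and LAMP2), beside 10.4% and 8.44% of all genes. Without OE-MMP28 replicate 3, 1 member was called higher and 1 lower, among 1402 genes or 8.48% of all. CTSS was at 796, 886 and 829.5 CPM in OE-MMP28 and at 677, 665 and 732 CPM with anti-VEGFA, with no overlap (log2 fold change -0.28, adjusted p = 0.23 by edgeR). Between the antibodies 32 genes (0.199%) were called, again none of them a member. At an unadjusted p under 0.05, CTSH, GM2A and HEXA were lower with anti-VEGFA than with anti-IL-8, beside 5.62% of all genes. CTSH was at 772, 697 and 807 CPM with anti-VEGFA, below all anti-IL-8 libraries (log2 fold change -0.47, SE 0.14, adjusted p = 0.17 by edgeR). In this direct comparison 33 of 38 members had a negative log2 fold change, with a median of -0.21 beside 0.02 over all genes. The median was -0.20 with the GC and length offsets. The numbers of calls against control, 16 and 5, therefore rest on no member whose difference between the antibodies passed the test.

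The 3 transcription factors moved by different amounts. TFEB was at 56.3, 53.9 and 48.3 CPM in control, at 57.4, 42.4 and 65.1 CPM in OE-MMP28, at 68.4, 71.4 and 78.4 CPM with anti-IL-8, and at 73.4, 67.8 and 67.1 CPM with anti-VEGFA. Both antibody groups were above every library of control and OE-MMP28. Against control TFEB rose with anti-IL-8 (log2 fold change 0.46, SE 0.14, adjusted p = 0.031 by edgeR), and with anti-VEGFA it was at 0.39 (adjusted p = 0.083 by edgeR). Against OE-MMP28 it was at 0.40 with anti-IL-8 and 0.34 under anti-VEGFA (adjusted p = 0.084 and 0.21 by edgeR). TFE3 was at 99.9, 90.3 and 84.0 CPM in control, at 93.2, 81.9 and 99.4 CPM in OE-MMP28, at 111, 109 and 118 CPM with anti-IL-8, and at 114, 104.5 and 111 CPM with anti-VEGFA. Its antibody libraries too were above all others, with log2 fold changes of 0.30 (anti-IL-8) and 0.26 (anti-VEGFA) against control that did not pass (adjusted p = 0.075 and 0.15 by edgeR). MITF went the other way, at 34.3, 37.6 and 29.5 CPM in control, 38.4, 47.1 and 28.5 CPM in OE-MMP28, 25.5, 27.2 and 29.1 CPM with anti-IL-8, and 27.8, 25.02 and 26.2 CPM with anti-VEGFA. The anti-VEGFA libraries were below all others of control and OE-MMP28, whereas anti-IL-8 overlapped OE-MMP28. Its log2 fold changes against OE-MMP28 were -0.48 (anti-IL-8) and -0.53 (anti-VEGFA; adjusted p = 0.076 and 0.12 by edgeR). TFEB and TFE3 are rich in GC (57.7% and 59.8%) and MITF is poor (41.4%). With the GC and length offsets the differences with anti-IL-8 against control were 0.22 for TFEB (adjusted p = 0.11), 0.05 for TFE3 (0.76) and 0.02 for MITF (0.92), all by edgeR. In OE-MMP28 against control all 3 were within 0.17 of no change. These are RNA levels; the location of the proteins in the cell, where mTORC1 acts on them, was not measured.

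The E-box read by the TFEB family is CACGTG, which is the same on both strands, and an extended form found in lysosomal promoters is TCACGTGA, which contains CACGTG and was counted within it. RefSeq promoter sequences (GRCh38.p14, from 250 bases before to 50 bases after each start) were at hand for 26 of the 38 members. CACGTG was present in the promoters of 9 of these 26 genes, or 34.6%, against 8.77% of 27305 genes. The form with 8 bases was in 5 of the 26, against 1.18% of all. Of the 9 genes with the motif, 6 rose and 1 fell with anti-IL-8 against control, and of the 17 without it, 6 rose. Over all genes 9.77% were called higher and 10.9% lower. With the GC and length offsets ATP6V0D1, MCOLN1 and ARSB, which have the motif, were no longer called. GRN, TFEB and SMPD1, which lack it, were also no longer called, and CTSC and FUCA1, which lack it, were added. A link between motif and change was not tested. The median GC content of the transcripts was 58.1% and 52.5% in these 2 sets. The windows of the 7 called genes are shown because they hold the sites a reader would look for beside the values above, each in the direction of the gene with CACGTG in capitals and 30 bases on either side. In GAA the sites started 76 and 31 bases before the start of transcription, in MCOLN1 41 and 14, in CTSA 42 and 25, in NEU1 126, in CTSD 47, in ATP6V0D1 59 and in ARSB, in 1 of its 2 promoters, 160. The windows lie at chr17:80101475-80101585 (plus strand), chr19:7522553-7522645 (plus), chr20:45891263-45891345 (plus), chr6:31862912-31862977 (minus), chr11:1763939-1764004 (minus), chr16:67481181-67481246 (minus) and chr5:78986083-78986148 (minus), in the same order.
GAA: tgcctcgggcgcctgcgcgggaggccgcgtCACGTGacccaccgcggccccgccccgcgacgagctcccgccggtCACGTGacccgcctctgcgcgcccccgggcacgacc
MCOLN1: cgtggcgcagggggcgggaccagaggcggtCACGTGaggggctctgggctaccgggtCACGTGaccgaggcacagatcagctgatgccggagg
CTSA: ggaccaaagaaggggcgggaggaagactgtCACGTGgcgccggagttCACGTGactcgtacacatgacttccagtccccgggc
NEU1: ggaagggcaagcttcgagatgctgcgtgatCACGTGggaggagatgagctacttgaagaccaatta
CTSD: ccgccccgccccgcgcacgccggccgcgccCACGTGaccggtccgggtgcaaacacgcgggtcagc
ATP6V0D1: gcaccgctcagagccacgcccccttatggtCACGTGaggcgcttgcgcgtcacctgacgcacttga
ARSB: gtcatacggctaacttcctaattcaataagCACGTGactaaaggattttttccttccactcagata
GAA and MCOLN1 hold 2 copies each of the 8-base form, CTSA and ATP6V0D1 hold 1, and NEU1, CTSD and ARSB hold the core alone. LAMP1 had 6 copies of CACGTG and CD63 had 1 in 1 of its 8 promoters, and the main edgeR fit called neither gene in any comparison. Some alternatives called them for anti-IL-8 against control, among them a fit of the 2 groups alone for both. DESeq2 called CD63 there and a fit with a replicate block called LAMP1. A match of letters does not show that a factor was bound there.

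Other genes of the pathway were read from lists of 147 genes, of which 141 passed the filter. In OE-MMP28 against control 2 of these were called higher and 2 lower, with anti-IL-8 26 higher and 12 lower, and with anti-VEGFA 6 higher and 10 lower. Over all genes the shares called higher and lower were 0.523% and 2.64%, 9.77% and 10.9%, and 5.60% and 5.37% in these comparisons. These values carry no GC correction. Of 18 other V-ATPase subunits tested, 9 were called higher with anti-IL-8 and none lower, with a median log2 fold change of 0.42. ATP6V0C, which forms the proton-carrying ring, was at 1.05 (SE 0.28, adjusted p = 0.017), ATP6V0B at 0.78 and ATP6V1F at 0.78, all by edgeR. Of 14 other lipid and nucleic acid hydrolases, 5 were called higher and none lower. The lysosomal phospholipase PLA2G15 was at 0.64 in OE-MMP28, 1.03 in anti-IL-8 and 0.72 in anti-VEGFA (adjusted p = 0.047, 0.00074 and 0.013 by edgeR), with all libraries above control each time. DNASE2, the acid DNase, was at 0.64 and PLBD2 at 0.57 with anti-IL-8. LIPA, the acid lipase, was lower with anti-VEGFA (log2 fold change -0.54, adjusted p = 0.043 by edgeR). Of 25 other membrane proteins tested with anti-IL-8, none was called higher and 3 lower, namely LAMP3 at -1.29, SCARB2, the receptor that sorts β-glucocerebrosidase, at -0.52 and OSTM1 at -0.39. LAMP3 was also lower in OE-MMP28 (-0.92) and with anti-VEGFA (-1.23). LAMP3 is interferon-inducible, and the interferon list was lower in the same 3 groups, but a link between them was not tested.

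Among 21 other glycosidases, sulfatases and glycan enzymes, 2 were called higher and 2 lower with anti-IL-8. For this list and those below, the shares over all genes were 9.77% higher and 10.9% lower with anti-IL-8. With anti-VEGFA they were 5.60% and 5.37%. HPSE, the heparanase, was lower in OE-MMP28, anti-IL-8 and anti-VEGFA by log2 fold changes of -0.95, -0.99 and -1.09, and IDUA, the iduronidase, was higher with anti-IL-8 (0.69) and anti-VEGFA (0.80). Of 9 other proteases, DPP7 was higher (0.90 for anti-IL-8, 0.75 for anti-VEGFA) and CTSO lower (-0.76 and -0.65). Of 3 cystatins, which inhibit cysteine cathepsins, CST3 was higher with anti-IL-8 (0.52, adjusted p = 0.042 by edgeR). In the list on enzyme sorting, GNPTG and GGA1 were higher and AP3B1 lower with anti-IL-8 (0.65, 0.55 and -0.48). In the list of 20 genes on mTORC1 and folliculin, 5 were higher and 2 lower with anti-IL-8, among them the mTORC1 subunit MLST8 (0.79), LAMTOR5 of the complex that docks mTORC1 on lysosomes (0.69), and TFEC, the remaining relative of TFEB (-0.85). None of the 20 was called in OE-MMP28 or with anti-VEGFA. Of 17 autophagy genes, 1 was higher (VPS18, 0.54) and 3 lower with anti-IL-8 (OPTN -0.72, UVRAG -0.51 and NBR1 -0.50), and 4 were lower with anti-VEGFA. Markers of macrophages moved as well: of 11 tested, 4 were higher with anti-IL-8 and 1 was lower, and CD14 was higher in all 3 groups, at 0.80, 1.07 and 0.88. The summed level of the macrophage list was 7123 to 7940 CPM in control and 6367 to 10356 CPM in OE-MMP28. It was 9611 to 12032 CPM with anti-IL-8 and 8262 to 9694 CPM with anti-VEGFA. ITGB2 alone made up 3490 to 7254 CPM. Against control, the median log2 fold change of the 11 markers was 0.08 in OE-MMP28, 0.30 in anti-IL-8 and -0.06 in anti-VEGFA. Markers with a positive log2 fold change numbered 6, 8 and 5 in that order. The part of these markers in the values of lysosomal genes was not tested.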

How the data were processed

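RNA libraries were made with a kit that does not mark strand, and per the labels HISAT2 2.0.5 and featureCounts 1.5.0-p3 were used by the authors. The genome build is not given in the sources used here, but 58698 of 58735 gene positions equal those of GENCODE 29 (GRCh38). The deposited counts are raw reads per gene made by the authors, and the authors also computed the deposited FPKM values. Deposited fold changes and p-values of their comparisons were not used.

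Counts were analysed in R 4.3.3 with edgeR 4.0.16: filterByExpr, TMM, 1 quasi-likelihood fit of 4 groups, and Benjamini-Hochberg adjustment over 16046 genes at 0.05. The method was also run on simulated counts with 1 dispersion for all genes, 0.0231, the common value fitted to these data. The simulated counts had no GC bias and no outlying library, so that run cannot speak to either. SE is the log2 fold change divided by the root of F. CPM values are TMM-scaled, and library medians add 0.1 CPM. Floors of 3 counts cover counting error only. GC content is that of the longest GENCODE 29 transcript, and its offsets use splines of 5 degrees of freedom. Alternatives included DESeq2 1.42.0, library totals, other filters, a 2-group fit, a replicate block and each library left out. Library values are given for the 15 called members with the smallest adjusted p and for the TFEB family, and at most 3 genes per list are named by size of change. CTSS was added after its values were seen. Members and lists were chosen with earlier results of these data known. Figures were drawn with matplotlib 3.10.9.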

Additional observations from a re-analysis of the deposited data

How the results depend on the processing

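None of the 23 calls of a member in a comparison changed sign under the alternatives run. Uncalled values did: with the GC and length offsets CTSA and GRN went to -0.03 and -0.01 for anti-IL-8 against OE-MMP28, and without OE-MMP28 replicate 3 GAA and TFEB went to -0.16 and -0.07 for OE-MMP28 against control. The offsets moved 13 of the 42 medians of classes or of all members by more than the spread between libraries. The counts of called members did move. At an unadjusted p under 0.05 they were 11 for OE-MMP28, 26 for anti-IL-8 and 15 for anti-VEGFA against control. They were 14 and 9 for anti-IL-8 and anti-VEGFA against OE-MMP28, and 3 between the antibodies. Against control, 22 of the 26 were higher and 4 lower with anti-IL-8, and 10 of the 15 were higher and 5 lower with anti-VEGFA. Over all 16046 genes 2760 were higher and 3001 lower with anti-IL-8, and 2296 higher and 2029 lower with anti-VEGFA. Shares for the other comparisons are given above. For OE-MMP28 against control the count of 2 was 4 with DESeq2, 0 with library totals, 6 with the GC and length offsets, and 0 to 5 with 1 library left out. For anti-IL-8 against control, 16 became 27 in a fit of the 2 groups alone and 6 to 23 with 1 library left out, while calls over all genes went from 20.7% to 39.8% and to 7.94% to 26.2%. With library totals it was 11, of which 9 were higher and 2 lower, beside 18.3% of all genes. For anti-VEGFA against control, 5 became 0 to 9. For anti-IL-8 against OE-MMP28, 0 became 9 with DESeq2, 3 without the filter on low counts, and 0 to 17 with 1 library left out. For anti-VEGFA against OE-MMP28 the count became 0 to 2, and 8.48% of all genes were called in the fit that gave 2. Between the antibodies the count stayed at 0 in these fits. The cause was not tested.

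Replicate numbers did not pair the libraries: same-numbered libraries correlated at -0.16 to 0.24 over 18 pairs, other-numbered ones at -0.32 to 0.34, and 4 of 12 libraries were nearest to their own number. With the replicate block, 3 members were called for anti-IL-8 against OE-MMP28 (GAA, MCOLN1 and ARSA), beside 4.95% of all genes. Against control, 3 members were called for OE-MMP28, 20 for anti-IL-8 and 6 for anti-VEGFA, beside 3.20%, 21.5% and 10.9% of all genes. In the other 2 comparisons 0 members were called. The members with the fewest counts were ATP6V0D2, with 31 to 96 per library, and LGMN, with 108 to 217.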
